A study of Mus musculus with 12 samples.

Results

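Keratin genes encode the intermediate filaments of epithelial cells, and their promoters were examined here for peaks of H3K9me2 and H3K9me3, methylation marks of histone H3 that are commonly found on repressed chromatin. The set held every protein-coding gene whose symbol is Krt followed by a digit on chromosome 11 or 15 of mm9, which gave 51 of 22367 protein-coding genes. Of these, 27 lay in the type I cluster (chromosome 11, 99094075 to 100131185) and 24 in the type II cluster (chromosome 15, 101177875 to 101862457). The genes of keratin-associated proteins (Krtap), which stand inside the type I cluster, were not counted as keratin genes.

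The data came from chromatin immunoprecipitation and sequencing (ChIP-seq) of wild-type C57BL/6J mice that received standard chow (SCD) or high-fat food (HFD) for 12 weeks from 6 weeks of age. The tissues were brown fat (BAT), a heat-producing tissue, and subcutaneous white fat (WAT), a lipid store, each cross-linked in 1% formaldehyde for 8 min. The 8 groups were SCD BAT H3K9me2, HFD BAT H3K9me2, SCD BAT H3K9me3, HFD BAT H3K9me3, SCD WAT H3K9me2, HFD WAT H3K9me2, SCD WAT H3K9me3 and HFD WAT H3K9me3, with 1 library and 1 list of peaks each. There were no replicates, so neither the diet, the tissue nor the mark was tested, and how many mice gave each library is not given in the sources used here. The marks are named as in the labels, although the methods pair each mark with an antibody described for the other degree of methylation. Each library is a whole tissue with all of its cell types, so fewer marked cells and less mark per cell cannot be told apart. The lists hold no expression values, and the tissue of each library could not be checked against marker genes.

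A gene was counted when a peak with a score of at least 50 lay within 3 kb of any of its annotated start sites. The score was taken to be −log10 of the p-value of a peak multiplied by 10, and the depth of the libraries is not in the lists, so a gene without a peak was not detected at that depth and a score is not a strength of methylation. Lists held between 8350 peaks (SCD WAT H3K9me3) and 52758 peaks (HFD BAT H3K9me3) of at least this score. In BAT, the HFD lists were longer than the SCD lists by 1.73-fold for H3K9me2 and 1.97-fold for H3K9me3. In WAT the ratio was 1.01 for H3K9me2 and 3.50 for H3K9me3. The family was selected on its promoter peak scores in these same lists, with earlier results known, so its counts are descriptions and no p-value is given. Exact (Clopper-Pearson) 95% intervals cover counting error only, and they take genes as independent, which neighbours in a cluster are not.

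Keratin filaments are built from pairs of an acidic type I chain and a basic type II chain, and each epithelium expresses its own pairs. Krt8 with Krt18 is the pair of simple epithelia, Krt5 with Krt14 that of the basal layer of the epidermis, and Krt1 with Krt10 that of the layers above it, while another large share of the family forms the hair shaft and its sheath. In mammals nearly all type I genes stand in 1 cluster and nearly all type II genes in another. Krt18 is the exception, a type I gene that lies beside Krt8 in the type II cluster on chromosome 15, and it is counted there unless stated. Adipocytes are not epithelial cells, and their main cytoplasmic intermediate filament is vimentin. The rule also took Krt72-ps, whose symbol is that of a pseudogene but which GENCODE vM1 lists as protein coding.

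Sequences are shown to compare the DNA before the start with that just inside it. Upstream of the start, keratin genes were poor in CpG. The 300 bases before the main start held a median of 4 CpG over the 51 genes and 10.0 over all protein-coding genes, and 33 of the 51 genes (64.7%, against 37.0% of all genes) held 5 or fewer. Of the 27 type I genes, 0 reached 10 CpG. The 5 genes that did were all in the type II cluster, namely Krt83 (21), Krt18 (18), Krt7 (17), Krt72-ps (12) and Krt80 (10). Below are the 300 bases before the start of Krt83 (chr15:101269236-101269535, minus strand), a hair shaft keratin gene with a peak in 7 lists, Krt18 (chr15:101858347-101858646, plus strand), with a peak in 3 lists, and, as genes of the more usual kind with 2 CpG each, Krt5 (chr15:101543323-101543622, minus strand) and Krt10 (chr11:99250679-99250978, minus strand). A peak covered the start of Krt83 in 7 lists, those of Krt18 and Krt5 in 2 lists each and that of Krt10 in 0. The sequences are given 5′ to 3′ on the gene's strand in mm9 (NCBIM37), and capitals mark CpG.
Krt83 upstream: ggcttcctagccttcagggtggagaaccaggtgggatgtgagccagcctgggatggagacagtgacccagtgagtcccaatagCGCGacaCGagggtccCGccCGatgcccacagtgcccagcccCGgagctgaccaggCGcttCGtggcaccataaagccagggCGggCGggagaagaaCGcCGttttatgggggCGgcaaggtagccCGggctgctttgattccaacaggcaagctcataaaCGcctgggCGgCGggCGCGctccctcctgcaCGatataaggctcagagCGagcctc
Krt18 upstream: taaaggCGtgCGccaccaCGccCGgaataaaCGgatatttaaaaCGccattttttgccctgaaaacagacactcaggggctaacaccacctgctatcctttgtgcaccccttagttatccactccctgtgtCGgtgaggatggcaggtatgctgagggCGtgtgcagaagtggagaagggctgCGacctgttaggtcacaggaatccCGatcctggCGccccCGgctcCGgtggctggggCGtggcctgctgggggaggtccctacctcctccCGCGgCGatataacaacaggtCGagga
Krt5 upstream: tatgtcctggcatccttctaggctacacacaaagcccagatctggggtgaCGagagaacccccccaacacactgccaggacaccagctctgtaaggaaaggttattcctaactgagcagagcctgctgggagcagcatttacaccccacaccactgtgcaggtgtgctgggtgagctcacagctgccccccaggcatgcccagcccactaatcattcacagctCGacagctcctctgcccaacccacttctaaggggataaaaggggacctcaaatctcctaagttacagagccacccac
Krt10 upstream: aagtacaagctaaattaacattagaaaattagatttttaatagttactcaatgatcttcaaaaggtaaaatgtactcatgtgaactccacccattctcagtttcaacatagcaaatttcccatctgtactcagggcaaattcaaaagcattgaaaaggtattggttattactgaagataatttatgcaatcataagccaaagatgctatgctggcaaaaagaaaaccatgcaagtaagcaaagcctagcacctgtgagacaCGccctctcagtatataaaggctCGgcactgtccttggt

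The coding DNA just inside the start was richer. The first coding exon of the 51 genes had a median length of 447 bases, a median GC content of 59.2% (from 50.6% to 64.4%) and 3.54 CpG per 100 bases. Peaks at keratin promoters lay on it more than in front of it. Over the 8 lists 117 peaks stood within 3 kb of a keratin start, and the midpoint of 70 fell in a coding exon, of 29 in an intron, of 6 in a UTR or noncoding exon and of 12 upstream. The share in coding exons was 59.8%, against 29.9% of 81470 peaks at the promoters of all genes, and it ranged from 33.3% (1 of 3 peaks, SCD WAT H3K9me3) to 4 of 5 peaks (HFD WAT H3K9me2). A first coding exon was overlapped by 73 of the 117 peaks. In each of the 8 lists the keratin peaks had a lower median CpG content than all promoter peaks. It was 2.81 against 7.16 per 100 bases in SCD BAT H3K9me2 and 4.68 against 5.24 in SCD WAT H3K9me3. The bases from the start codon onward are shown for Krt72-ps (chr15:101616590-101616889, 21 CpG in 300 bases), the gene with a peak in all 8 lists, and for 3 type II genes with peaks in both HFD lists of BAT and in neither SCD list, Krt5 (chr15:101542942-101543241, 13 CpG), Krt4 (chr15:101754802-101755101, 18 CpG) and Krt81 (chr15:101293829-101294128, 17 CpG). All lie on the minus strand, and capitals again mark CpG.
Krt72-ps exon: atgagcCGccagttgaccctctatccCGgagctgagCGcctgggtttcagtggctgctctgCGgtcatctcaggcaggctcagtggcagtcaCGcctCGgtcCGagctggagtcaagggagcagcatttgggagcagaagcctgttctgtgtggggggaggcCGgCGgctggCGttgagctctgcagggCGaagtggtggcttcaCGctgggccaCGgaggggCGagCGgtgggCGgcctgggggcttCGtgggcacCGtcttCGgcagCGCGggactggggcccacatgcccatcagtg
Krt5 exon: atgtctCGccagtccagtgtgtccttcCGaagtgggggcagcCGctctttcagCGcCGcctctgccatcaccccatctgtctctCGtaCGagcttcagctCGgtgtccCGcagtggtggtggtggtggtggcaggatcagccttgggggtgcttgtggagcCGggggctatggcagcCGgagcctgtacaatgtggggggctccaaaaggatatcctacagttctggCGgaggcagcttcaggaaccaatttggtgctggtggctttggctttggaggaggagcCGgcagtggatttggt
Krt4 exon: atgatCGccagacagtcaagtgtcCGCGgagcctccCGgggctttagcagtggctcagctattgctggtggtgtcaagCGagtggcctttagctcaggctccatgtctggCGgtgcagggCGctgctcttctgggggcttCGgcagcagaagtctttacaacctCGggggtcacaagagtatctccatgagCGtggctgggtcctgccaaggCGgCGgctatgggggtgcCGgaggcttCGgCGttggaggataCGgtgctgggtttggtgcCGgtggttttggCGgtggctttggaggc
Krt81 exon: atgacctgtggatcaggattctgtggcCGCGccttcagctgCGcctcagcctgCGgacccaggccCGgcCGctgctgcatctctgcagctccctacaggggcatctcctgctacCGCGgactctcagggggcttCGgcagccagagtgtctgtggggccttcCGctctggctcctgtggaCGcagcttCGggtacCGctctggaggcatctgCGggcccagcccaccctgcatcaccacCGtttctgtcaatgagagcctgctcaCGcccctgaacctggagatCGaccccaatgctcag

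In BAT of SCD-fed mice few keratin genes had a promoter peak. There were 9 of 51 (17.6%, 95% interval 8.40 to 30.9) for H3K9me2, where 43.3% of all protein-coding genes had one, and 9 of 51 (17.6%, 8.40 to 30.9) for H3K9me3, against 52.3%. In BAT of HFD-fed mice the numbers were 30 (58.8%, 44.2 to 72.4) for H3K9me2, against 45.6% of all genes, and 23 (45.1%, 31.1 to 59.7) for H3K9me3, against 59.0%. The share of keratin genes was thus above that of all genes in 1 of the 8 lists, HFD BAT H3K9me2, where its interval included the 45.6%. With that list shortened to the length of the SCD list, the keratin share was below, at 29.4% against 31.7% of all genes. In WAT there were 10 genes (19.6%, 9.82 to 33.1) in SCD WAT H3K9me2, against 42.4% of all genes, and 5 (9.80%, 3.26 to 21.4) in HFD WAT H3K9me2, against 39.3%. For H3K9me3 in WAT there were 2 genes (3.92%, 0.478 to 13.5) on SCD, against 6.96%, and 13 (25.5%, 14.3 to 39.6) on HFD, against 35.9%.

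The clusters differed in how their counts lay across the diets. In the type II cluster, 3 of 24 genes had an H3K9me2 peak in SCD BAT (12.5%, 2.66 to 32.4) and 17 in HFD BAT (70.8%, 48.9 to 87.4). The H3K9me3 counts were 4 (16.7%, 4.74 to 37.4) and 17 (70.8%, 48.9 to 87.4). In the type I cluster the H3K9me2 counts were 6 of 27 (22.2%, 8.62 to 42.3) and 13 (48.1%, 28.7 to 68.1), and those of H3K9me3 were 5 (18.5%, 6.30 to 38.1) and 6 (22.2%, 8.62 to 42.3). The type II cluster therefore stood above the share of all genes in both HFD lists of BAT and below it in both SCD lists, while the H3K9me3 count of the type I cluster was nearly the same on both diets. For H3K9me3 in HFD BAT the type II interval included the 59.0% of all genes. In WAT, the type II counts for H3K9me2 were 6 on SCD and 4 on HFD, and for H3K9me3 2 and 7. The type I counts were 4 and 1 for H3K9me2, and 0 of 27 (an exact upper limit of 12.8%) and 6 for H3K9me3. Counting Krt18 with the type I genes left HFD BAT H3K9me3 at 16 of 23 type II genes (69.6%) and 7 of 28 type I genes (25.0%).

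**Figure D1:**
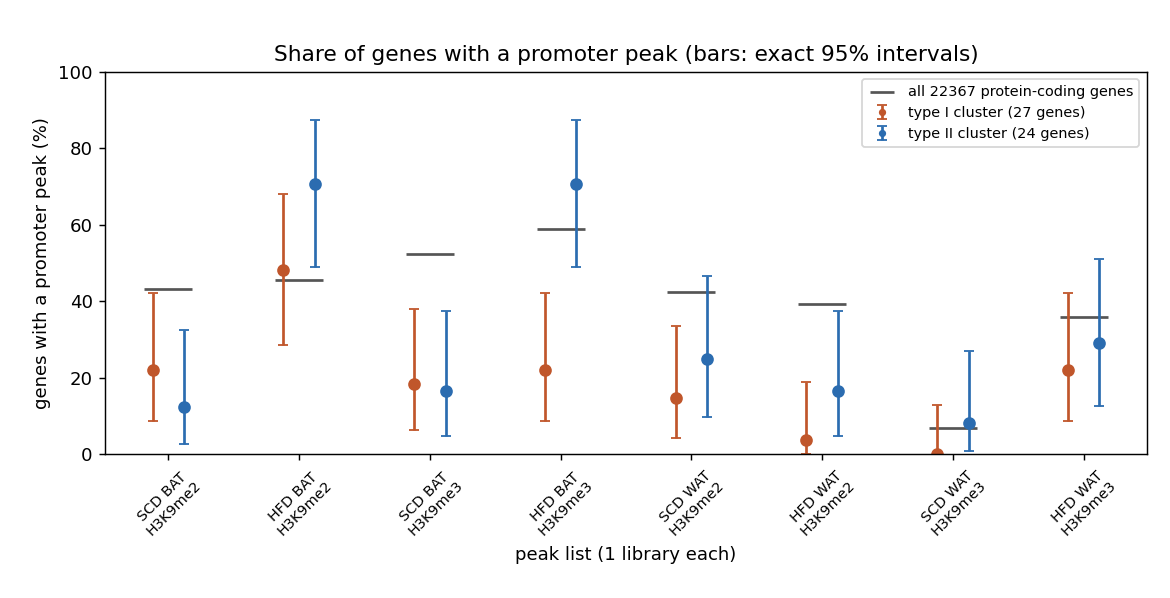
Share of genes with a promoter peak (y axis, percent) in each of the 8 peak lists (x axis), for the type I cluster (27 genes, red points), the type II cluster (24 genes, blue points) and all 22367 protein-coding genes (grey lines). Bars are exact 95% intervals for counting error, and the type II cluster stands at 70.8% in both HFD lists of BAT.

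The keratin genes of each pair of diet lists were then compared. For H3K9me2 in BAT, 2 genes had a peak on SCD only (3.92%, against 11.5% of all genes), 23 on HFD only (45.1%, against 13.8%), 7 on both and 19 on neither. Of the 23, 14 were type II genes, and of the 2, both were type I. For H3K9me3 in BAT, 3 genes were SCD only (5.88%, against 2.16%), 17 HFD only (33.3%, against 8.84%) and 6 on both, and 13 of the 17 were type II genes. No type II gene was SCD only in BAT for either mark (0 of 24, an exact upper limit of 14.2%). In WAT the H3K9me2 counts were 7 SCD only (13.7%, against 10.2%), 2 HFD only (3.92%, against 7.17%) and 3 on both. The H3K9me3 counts in WAT were 0 SCD only (against 1.69%), 11 HFD only (21.6%, against 30.6%) and 2 on both, in a pair of lists of very unequal length.

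The longer HFD lists enter these counts. When the HFD list of BAT was shortened from its lowest scores to the length of the SCD list, the H3K9me2 genes were 9 on SCD and 15 on HFD, with 3 and 10 type II genes and 6 and 5 type I genes, while the share of all genes was 43.3% and 31.7%. For H3K9me3 the shortened list gave 9 genes on each diet, made of 4 type II and 5 type I genes on SCD and 8 and 1 on HFD, and the share of all genes was 52.3% and 49.5%. Genes with a peak on SCD only were then 5 and those on HFD only 11 for H3K9me2, and 5 and 5 for H3K9me3, counts not made over all genes. The larger number of type II genes on HFD was thus seen in BAT with equal numbers of peaks, and the larger total for H3K9me3 was not. In the shortened HFD lists the type II cluster stood above the share of all genes for H3K9me2 (10 of 24, against 31.7%). For H3K9me3 it stood below that share (8 of 24, against 49.5%). In WAT with equal numbers the genes were 10 on SCD and 5 on HFD for H3K9me2, where all genes had 42.4% and 39.2%. For H3K9me3 they were 2 and 3, where all genes had 6.96% and 12.1%.

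**Figure D2:**
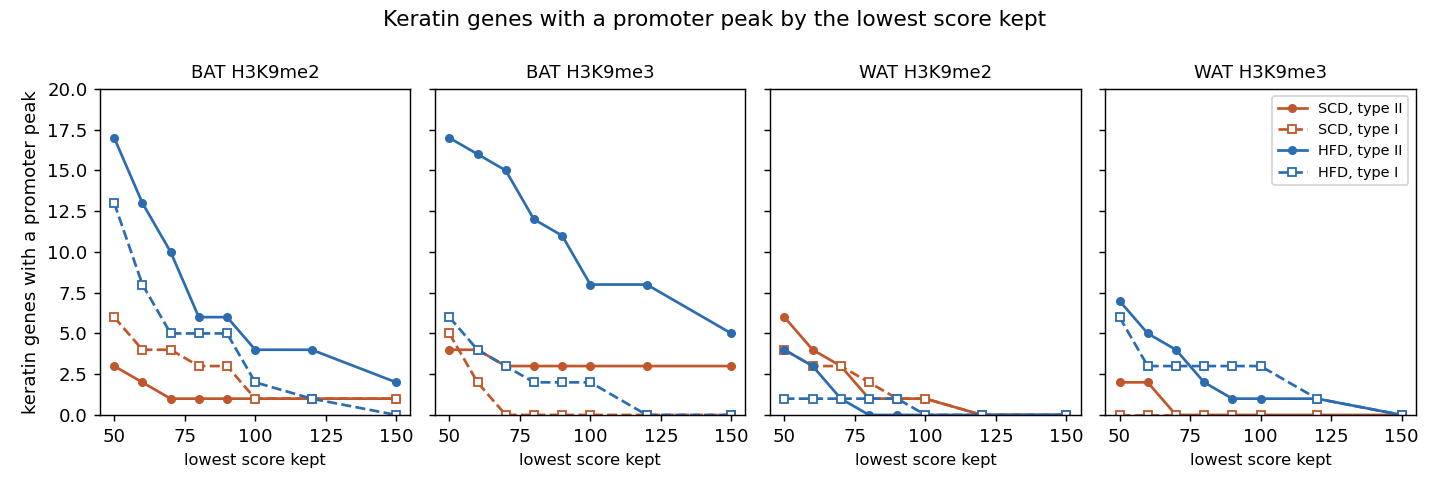
Number of keratin genes with a promoter peak (y axis) against the lowest score kept (x axis) for SCD (red) and HFD (blue), with the type II cluster as filled circles and the type I cluster as open squares, in 4 panels for tissue and mark. In BAT H3K9me3 the HFD type II count runs from 17 at a lowest score of 50 to 5 at 150, above the SCD count of 4 to 3 at every score plotted. Shares over all genes were not counted at the plotted scores above 50.

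Most keratin peaks were weak calls. Of the 117 peaks, 88 had a score under 100 and 33 a score under 60, and in each of the 8 lists the median score at keratin promoters was below that of all promoter peaks, for example 66.1 against 189 in SCD BAT H3K9me3 and 71.4 against 79.8 in HFD BAT H3K9me2. They were also narrower, with median widths of 638 bp and 838 bp in HFD BAT H3K9me3. A start site was covered by 66 of them. Just inside the lowest score stood Krt6a (50.2), Krt7 (50.9) and Krt6b (51.9) in HFD BAT H3K9me2, Krt82 (51.3) and Krt33b (51.99) in HFD BAT H3K9me3, Krt25 (50.6) in SCD BAT H3K9me3, Krt7 (50.3) in SCD WAT H3K9me2 and Krt18 (50.4) in HFD WAT H3K9me3. Just outside the window of 3 kb, Krt10 had a peak of score 139.86 at 3006 bp from its start in SCD BAT H3K9me3. The SCD lists of WAT, deposited down to a score of 30, held promoter peaks under 50 at 11 more keratin genes for H3K9me2 and 8 more for H3K9me3, and no other list reaches that low.

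**Figure D3:**
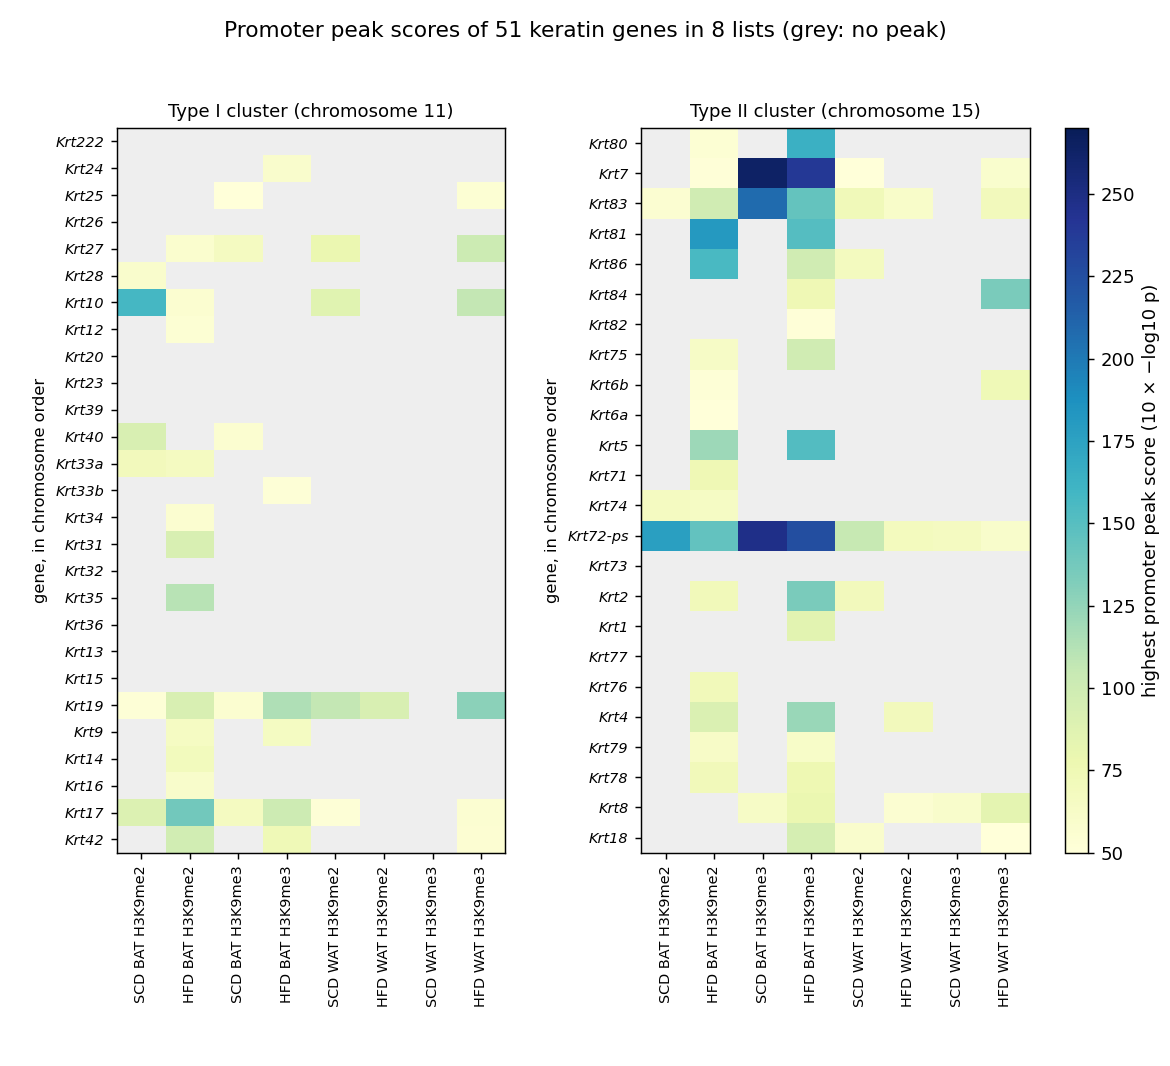
Highest promoter peak score (colour, 10 times the negative log10 p) of each of the 51 keratin genes (rows, in chromosome order) in each of the 8 lists (columns), with type I genes on the left and type II genes on the right and grey for no peak. Krt72-ps is coloured in all 8 lists, and the HFD BAT columns of the type II panel hold 17 genes each.

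Among the keratins of simple epithelia, 5 of 7 had a peak in some list (71.4%, against 68.2% of all genes), with 1 and 3 genes on SCD and HFD for H3K9me2 in BAT and 3 and 5 for H3K9me3, or 42.9% and 71.4% in the HFD lists, where all genes had 45.6% and 59.0%. Krt7, a type II keratin of ducts and mesothelium, had the highest score of any keratin gene, 263 in SCD BAT H3K9me3, and 239.5 in HFD BAT H3K9me3. It also had peaks in HFD BAT H3K9me2 (50.9), SCD WAT H3K9me2 (50.3) and HFD WAT H3K9me3 (57.9), all over its start and overlapping the first coding exon, and none in the other 3 lists. The pattern of Krt7 in BAT was thus high in H3K9me3 on both diets, and for H3K9me2 it was close to the lowest score on HFD.

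Krt19, a small type I keratin of simple epithelia, had a peak in 7 lists. Its highest scores in BAT were 52.5 (SCD) and 92.1 (HFD) for H3K9me2 and 56.3 (SCD) and 114 (HFD) for H3K9me3. In WAT they were 107 (SCD) and 92.6 (HFD) for H3K9me2, none on SCD and 128 on HFD for H3K9me3. The peaks of Krt19 stood at 2 places, its first coding exon (overlapped in 5 lists) and the 3′ part of the gene downstream of another annotated start, and in WAT the H3K9me2 peak was at the latter on SCD and at the former on HFD. In BAT, too, the highest peaks of the diets lay at different places. At the same place, the exon peaks of H3K9me2 had 52.5 (SCD) and 80.6 (HFD), and the 3′ peaks of H3K9me3 had 56.3 (SCD) and 57.8 (HFD). Krt8 had peaks in 5 lists, with scores of 63.4 (SCD) and 79.0 (HFD) for H3K9me3 in BAT, 60.2 (SCD) and 84.2 (HFD) for H3K9me3 in WAT and 55.2 in HFD WAT H3K9me2. In 4 of the 5 the Krt8 peak lay inside the gene, 674 to 863 bp from the start, and in SCD BAT H3K9me3 a wider peak covered the start as well. Its partner Krt18 had peaks in HFD BAT H3K9me3 (95.5), SCD WAT H3K9me2 (59.2) and HFD WAT H3K9me3 (50.4). Krt8 and Krt18 were thus both marked by H3K9me3 in HFD BAT and in HFD WAT. Krt80 had peaks in HFD BAT only, 53.8 for H3K9me2 and 164 for H3K9me3, the former 2942 bp upstream and the latter over the start. Krt20 and Krt23 had none.

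The keratins of the stratified epidermis came next. Krt5, the type II keratin of the basal layer, had a score of 121 in HFD BAT H3K9me2 and 152 in HFD BAT H3K9me3, and no peak of score 50 in the other 6 lists. Both peaks covered its start and the first coding exon shown above. Krt14, its type I partner, had a peak in HFD BAT H3K9me2 (69.5) alone, and Krt15 had none. Of the keratins of the upper layers, Krt1 had a peak in HFD BAT H3K9me3 (85.4) alone. Krt10, the partner of Krt1, had scores of 158 in SCD BAT H3K9me2, 56.8 in HFD BAT H3K9me2, 86.9 in SCD WAT H3K9me2 and 107 in HFD WAT H3K9me3. All 4 Krt10 peaks lay 2588 to 2923 bp inside the gene from its start, so none overlapped its first coding exon. Krt2, a late epidermal keratin, had 71.4 in HFD BAT H3K9me2, 134 in HFD BAT H3K9me3 and 70.5 in SCD WAT H3K9me2, at most 19 bp from the start. Krt9, of palms and soles, had 64.9 and 65.9 in the HFD BAT lists, and Krt77 had none.

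The keratins induced in wounded or hyperproliferative epidermis, Krt6a, Krt6b, Krt16 and Krt17, all had a peak in HFD BAT H3K9me2 (4 of 4, against 45.6% of all genes). In HFD BAT H3K9me3 1 of the 4 had one (25.0%, against 59.0%). Krt17 had peaks in 6 lists, with scores of 90.2 and 138 for H3K9me2 on SCD and HFD in BAT, 66.5 and 100.4 for H3K9me3 in BAT, 52.5 in SCD WAT H3K9me2 and 55.7 in HFD WAT H3K9me3. The SCD BAT H3K9me2 peak of Krt17 lay 2960 bp into the gene and its HFD counterpart over the start, so those diets did not share a peak. A further peak in HFD BAT H3K9me2 reached both Krt17 and its neighbour Krt42, and it was the only peak that reached 2 keratin genes. Krt42 had scores of 97.7 in HFD BAT H3K9me2, 73.4 in HFD BAT H3K9me3 and 54.5 in HFD WAT H3K9me3 and none on SCD. Krt16 (59.9) and Krt6a (50.2) had that H3K9me2 peak alone, and Krt6b (51.9) had 1 more, in HFD WAT H3K9me3 (73.8). Krt6a and Krt6b are near-identical copies, and the authors discarded reads with more than 1 matching site, so their values are uncertain.

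Hair keratins made up the largest group, with 14 genes of the shaft and 8 of the inner root sheath and companion layer. Of the shaft genes, 3 had an H3K9me2 peak in SCD BAT and 7 in HFD BAT, and for H3K9me3 the counts were 2 and 6. In HFD BAT these were 7 of 14 and 6 of 14, where all genes had 45.6% and 59.0%. The shares of all genes in SCD BAT were 43.3% for H3K9me2 and 52.3% for H3K9me3. Krt81, a keratin of the hair cortex, had the highest H3K9me2 score of any keratin gene, 181 in HFD BAT, with 151 for H3K9me3 in HFD BAT and no other peak. Krt86 stood beside it with 156 in HFD BAT H3K9me2, 98.7 in HFD BAT H3K9me3 and 67.6 in SCD WAT H3K9me2. Krt83 had a peak over its start in 7 lists, missing from SCD WAT H3K9me3. Its scores in BAT were 55.8 (SCD) and 98.2 (HFD) for H3K9me2 and 208 (SCD) and 144 (HFD) for H3K9me3, and in WAT 71.6 (SCD) and 60.4 (HFD) for H3K9me2 and 70.6 (HFD) for H3K9me3. Krt81, Krt83 and Krt86 are close copies of each other, and the same limit on multiply mapped reads holds for them and for Krt33a and Krt33b. Krt84, of hair and tongue, had the highest keratin score in HFD WAT H3K9me3, 135, and 74.8 in HFD BAT H3K9me3.

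Type I hair genes supplied the few peaks seen on SCD alone in BAT. Krt40 had scores of 92.8 for H3K9me2 and 56.6 for H3K9me3 in SCD BAT, and Krt28 had 59.3 in SCD BAT H3K9me2. Krt27, of the inner root sheath, had 66.9 in SCD BAT H3K9me3, 57.1 in HFD BAT H3K9me2, 79.2 in SCD WAT H3K9me2 and 101 in HFD WAT H3K9me3, so that for each mark its diet differed between the tissues. Krt25 had 50.6 in SCD BAT H3K9me3 and 53.8 in HFD WAT H3K9me3. On HFD alone in BAT, Krt35 (111) and Krt31 (92.7), both of the hair shaft, had an H3K9me2 peak and no other. Of the inner root sheath and companion layer genes as a group, 2 of 8 had a peak in SCD BAT and 4 in HFD BAT for H3K9me2 (against 43.3% and 45.6% of all genes), and 2 and 1 for H3K9me3.

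The keratins of mouth, esophagus and cornea had no peak in either SCD list of BAT (0 of 6, against 43.3% of all genes for H3K9me2 and 52.3% for H3K9me3). In HFD BAT, 4 of 6 had an H3K9me2 peak (66.7%, against 45.6% of all genes) and 3 of 6 an H3K9me3 peak (against 59.0%). Krt4, of the esophagus, had 90.9 in HFD BAT H3K9me2, 123 in HFD BAT H3K9me3 and 70.2 in HFD WAT H3K9me2, always over its start. It was the only keratin gene on HFD alone for H3K9me2 in both tissues. Krt12, of the cornea, had 53.5 in HFD BAT H3K9me2. Krt13 had none.

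Krt72-ps was the only keratin gene with a peak in all 8 lists, as were 3.72% of all genes. Its scores in BAT were 177 (SCD) and 145 (HFD) for H3K9me2 and 247 (SCD) and 225 (HFD) for H3K9me3. In WAT they were 105 (SCD) and 68.3 (HFD) for H3K9me2 and 66.8 (SCD) and 60.3 (HFD) for H3K9me3. Peaks of all 8 lists shared 431 bp (chr15:101616514-101616944) across its start, with 27 CpG and a GC content of 68.0%, which takes in the exon bases shown above. In HFD BAT H3K9me2 and SCD WAT H3K9me3 the highest peak of the gene was another, and the peak over the start had scores of 105 and 56.3.

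Most keratin genes with a peak had it in few lists. Of the 51 genes, 11 had no peak (21.6%, against 31.8% of all genes), 14 had a peak in 1 list (27.5%, against 7.56%) and 13 in 2 lists (25.5%, against 6.24%), while 3 reached 7 or 8 lists, as did 18.1% of all genes. Those without a peak were Krt222, Krt26, Krt20, Krt23, Krt39, Krt32, Krt36, Krt13 and Krt15 of the type I cluster and Krt73 and Krt77 of the type II cluster. All 40 genes with a peak had one in BAT, 16 of them had one in WAT as well, and 0 had one in WAT alone. In BAT, 37 genes had a peak on HFD for at least 1 mark and 13 on SCD. These tissue and diet counts were not made over all genes, so they cannot be called particular to keratin genes. The HFD lists of BAT, with 43173 and 52758 peaks, were also the longest.

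The marks were also compared gene by gene. In HFD BAT, 16 keratin genes had both, which was 53.3% of those with H3K9me2 and 69.6% of those with H3K9me3, where the shares over all genes were 89.6% and 69.3%, and the peaks overlapped at 14. In SCD BAT it was 5 genes, 55.6% of either list, against 93.1% and 77.0% over all genes, with overlapping peaks at 3. In HFD WAT, 4 genes had both (of 5 with H3K9me2 and 13 with H3K9me3, against 66.3% and 72.6% over all genes), and in SCD WAT 1 had both. For both marks, 11 keratin genes had a BAT peak on HFD only, and 9 of them were type II genes. The share for both marks was not counted over all genes, of which 13.8% were HFD only for H3K9me2 and 8.84% for H3K9me3. These 9 were Krt2, Krt4, Krt5, Krt75, Krt78, Krt79, Krt80, Krt81 and Krt86, and the type I genes were Krt9 and Krt42.

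The H3K9me2 counts of the diets stood in opposite order in the tissues. HFD minus SCD, the difference was 21 more keratin genes in BAT and 5 fewer in WAT. Over all protein-coding genes it was 515 more in BAT and 676 fewer in WAT, so in the full lists the signs were those of all genes. With lists of equal length they were not in BAT, where all genes numbered 9683 on SCD and 7082 on HFD and keratin genes 9 and 15. In WAT all genes then numbered 9476 and 8757 and keratin genes 10 and 5. Krt2, Krt7, Krt27 and Krt86 had an H3K9me2 peak on HFD only in BAT and on SCD only in WAT. For H3K9me3, HFD exceeded SCD by 14 keratin genes in BAT and 11 in WAT (1493 and 6476 of all genes), and Krt18, Krt42 and Krt84 were HFD only in both tissues. How many of all genes followed either of these patterns across the tissues was not counted.

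Over the clusters as a whole, peaks were counted from the first to the last keratin gene. Across the type II cluster (0.685 Mb) there were 10 H3K9me2 peaks in SCD BAT and 42 in HFD BAT, a ratio of 4.20, where the 1 Mb on either side gave 1.69 and chromosome 15 gave 2.01. For H3K9me3 in BAT the peaks numbered 11 and 31, a ratio of 2.82 against 1.55 and 2.13. With lists of equal length the HFD counts were 23 and 14. In WAT, the type II cluster had 13 and 5 H3K9me2 peaks (ratio 0.385, with 0.911 in the flanks) and 3 and 10 H3K9me3 peaks (ratio 3.33, with 7.17 in the flanks).

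The type I cluster (1.04 Mb) was split by the Krtap array, which encodes the matrix proteins of hair. The array (chromosome 11, 99404473 to 99872508) held 27 to 46 peaks per list, or 57.7 to 98.3 per Mb, with 46 and 42 for H3K9me2 on SCD and HFD in BAT and 40 on each diet for H3K9me3. The keratin genes on its sides (0.569 Mb) held 8 and 23 H3K9me2 peaks in BAT, 14.1 and 40.4 per Mb, and 10 and 15 H3K9me3 peaks. In WAT the keratin sides held 6 and 2 H3K9me2 peaks and 2 and 9 H3K9me3 peaks. So the total of the type I cluster, 54 and 65 for H3K9me2 in BAT and 50 and 55 for H3K9me3, was mostly that of the array, whose ratio of HFD to SCD in BAT was 0.913 for H3K9me2 and 1.00 for H3K9me3. All 22 Krtap genes of chromosome 11 had a promoter peak in both H3K9me2 lists of BAT, Krtap1-3 and Krtap1-4 with scores of 502 and 563 on SCD and 134 and 197 on HFD, whereas of the 19 on chromosome 16 between 0 and 3 had one in any list. Array genes are close copies, so the removal of multiply mapped reads bears on them as well.

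**Figure D4:**
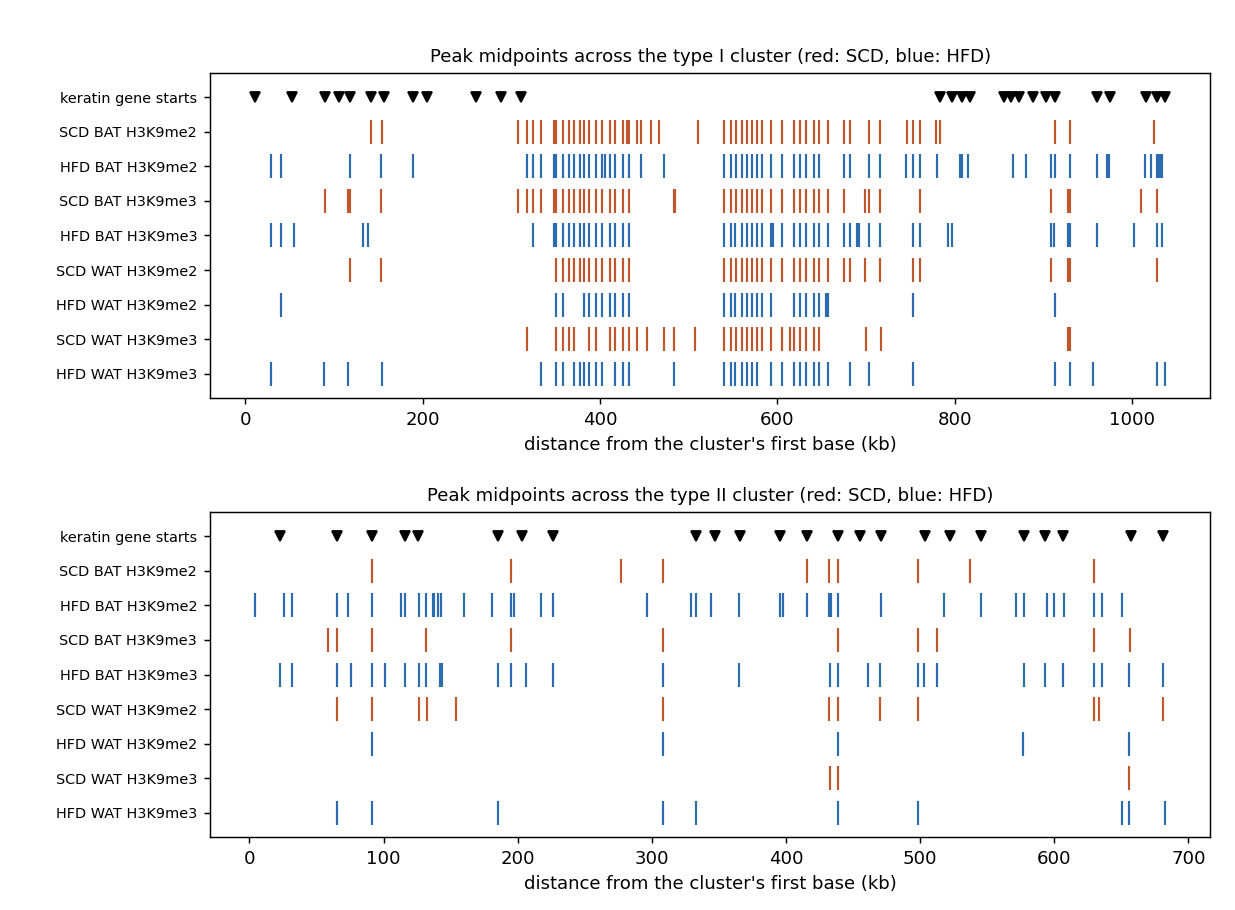
Midpoints of all peaks of score 50 or more across the type I cluster (top) and the type II cluster (bottom), by list (rows; SCD red, HFD blue) and distance from the first base of the cluster in kb (x axis), with triangles for the main starts of keratin genes. The gap between triangles in the type I cluster is the Krtap array, with 27 to 46 peaks per list, and the type II rows of BAT run from 10 peaks on SCD to 42 on HFD for H3K9me2.

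Keratin genes were also set beside genes of similarly low CpG content in the 300 bases before the start. First coding exons, overlapped by 73 of the 117 keratin peaks, were not matched for CpG. Among genes with 5 or fewer CpG before the start, 5 of 33 keratin genes (15.2%) had an H3K9me2 peak in SCD BAT, against 15.7% of all 8267 such genes, and 4 (12.1%) an H3K9me3 peak, against 16.5%. In HFD BAT, 19 of the 33 (57.6%) had an H3K9me2 peak, against 22.9%, and 13 (39.4%) an H3K9me3 peak, against 22.0%. In WAT the shares were 15.2% and 14.8% for SCD H3K9me2, 6.06% and 10.9% for HFD H3K9me2, and 3.03% and 5.42% for SCD H3K9me3, and in HFD WAT H3K9me3 7 of the 33 keratin genes (21.2%) and 1242 of all 8267 had a peak. HFD-only H3K9me2 peaks in BAT were at 45.5% of these keratin genes and 11.2% of all such genes.

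**Figure D5:**
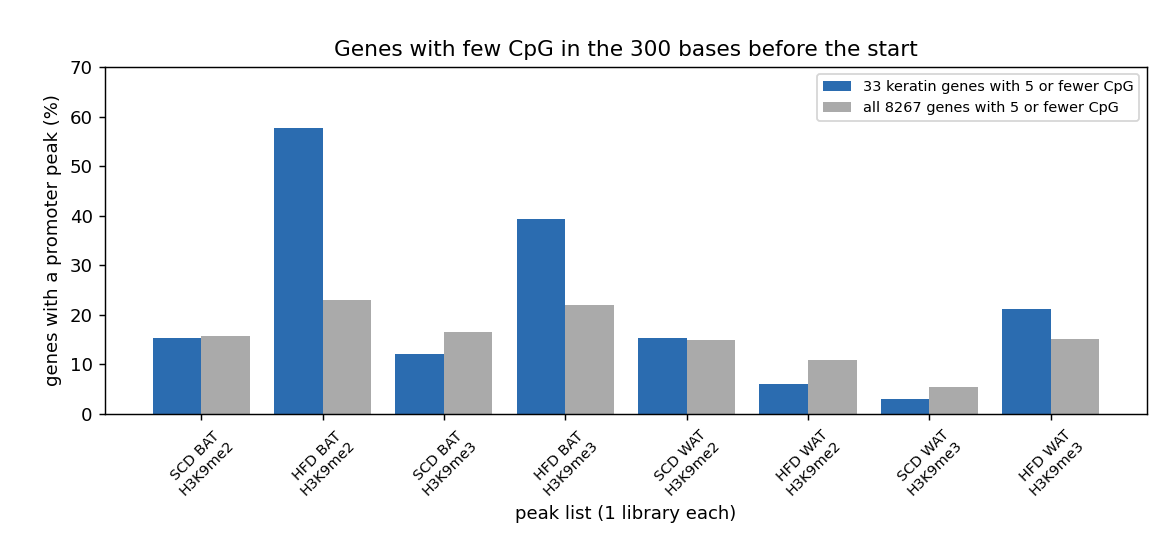
Share of genes with a promoter peak (y axis, percent) in each list (x axis) among genes with 5 or fewer CpG in the 300 bases before the main start, for 33 keratin genes (blue bars) and all 8267 such genes (grey bars). The bars are alike in SCD BAT H3K9me2 (15.2% and 15.7%) and stand at 57.6% and 22.9% in HFD BAT H3K9me2.

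Related genes were counted in the same way. All protein-coding genes had 43.3% and 45.6% in SCD and HFD BAT for H3K9me2, and 52.3% and 59.0% for H3K9me3. Of 15 other intermediate filament genes, 13 had an H3K9me2 peak in SCD BAT and 14 in HFD BAT, and the same numbers had an H3K9me3 peak. Vim, the vimentin gene, had BAT scores of 56.8 (SCD) and 68.3 (HFD) for H3K9me2 and 103 (SCD) and 342 (HFD) for H3K9me3. Des, for desmin of muscle, had 91.9 and 125 for H3K9me2, and Nefm, a neurofilament gene, had peaks in all 8 lists, with 281 and 175 for H3K9me2 in BAT. Of 14 genes for filament anchoring and the cornified envelope, 9 and 12 had an H3K9me2 peak in SCD and HFD BAT and 10 and 12 an H3K9me3 peak, and Flg (filaggrin), Lor (loricrin) and Pkp2 (plakophilin) had one in all 8 lists. Among 14 regulators of epidermis and hair the counts in BAT were 9 on each diet for H3K9me2 and 10 and 12 for H3K9me3. Klf5 and Msx2 had peaks in all 8 lists, whereas Trp63, the master regulator of stratified epithelium, had none. Other genes within the type II cluster or 1 Mb of it, 64 in all, included 17 with an H3K9me2 peak on HFD only in BAT (26.6%) and 13 on SCD only (20.3%), where the type II keratin genes had 14 of 24 (58.3%) and 0. For H3K9me3 these 64 had 9 (14.1%) and 0, and the type II keratin genes 13 of 24 (54.2%) and 0. Around the type I cluster, 109 such genes (Krtap genes aside) had 21 (19.3%) and 15 (13.8%) for H3K9me2 in BAT. The type I keratin genes had 9 of 27 (33.3%) and 2. For H3K9me3 in BAT the 109 had 17 (15.6%) and 1, and the type I keratin genes 4 of 27 (14.8%) and 3.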

How the data were processed

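Of the 12 ChIP-seq libraries, the 8 immunoprecipitated ones have a peak list each, and 4 were inputs, not analysed here. Per the paper and the submitters' processing notes, the authors checked reads by FastQC, trimmed adaptors using Trim Galore, mapped to mm9 by Bowtie2 2.4.2, kept uniquely mapped reads and used MACS2 for peaks. The deposited score has no stated unit. Its lowest value is 50 or 50.01 in 6 lists and 30 in both SCD WAT lists, so peaks of at least 50 were used. Depth is not given in the lists.

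Chromosome lengths of NCBIM37 were checked to hold all peaks, and genes came from GENCODE vM1 (22367 protein-coding genes on 21 placed chromosomes, 70051 start sites). Groups were taken from the library labels. Intervals are exact (Clopper-Pearson) at 95%. With 1 library per group no test was run. The members, gene lists and alternatives were chosen with earlier results of these data known. Genes were named by a rule (8 well-known keratins, the 3 highest scores per list, genes in at least 6 lists, up to 4 per diet-only class, up to 3 per comparison list), and others to account for the members. Krt72 and Krt85 of the role lists were not among the members. Promoter calls were tested on simulated data and differed from those of bedtools 2.31.1 for 0 genes. Alternatives were a score of at least 80, no lowest score, promoters of 1 kb, 1 start per gene, equal numbers of peaks and overlap by 1 bp. Python 3.11.15, NumPy 2.4.6, pandas 2.3.3, SciPy 1.17.1 and matplotlib 3.10.9 were used.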

Additional observations from a re-analysis of the deposited data

Results flagged for a closer look

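The difference between diets in the number of keratin genes with an H3K9me2 promoter peak, HFD minus SCD, was 21 in BAT and -5 in WAT, opposite in direction. Over all protein-coding genes the same differences were 515 and -676, also opposite in the full lists. With lists of equal length, all genes with a peak numbered 9683 (SCD) and 7082 (HFD) in BAT. In WAT they numbered 9476 and 8757, so they were fewer on HFD in both tissues. Keratin genes then numbered 9 and 15 in BAT and 10 and 5 in WAT. Whether the direction is shared with all genes thus depended on list length, and it was not tested. A closer look was also given to the 4 keratin genes with an H3K9me2 peak on HFD only in BAT and on SCD only in WAT, namely Krt2, Krt7, Krt27 and Krt86. The share of all genes with that pattern was not counted. The difference between the tissues was not tested, since each group is 1 library.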

How the results depend on the processing

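Of 144 values under alternatives, 111 stayed within 1.5 times the reported count or within the 95% interval (Newcombe) of the difference between clusters and 33 moved. All 33 were counts. The 111 took in all 40 differences between clusters, whose intervals were wide, with the 8 that changed sign. Some values could not move. No lowest score changes only the SCD lists of WAT, and equal numbers leave the shorter list of each pair as it was. The share of type I genes minus that of type II genes was -48.6 percentage points in HFD BAT H3K9me3 and ran from -48.6 to -29.6 under 5 alternatives. Its interval excluded 0 in that list alone of the 8. These intervals take neighbouring genes as independent, and the family was selected on these lists, so they do not test the sign in any list. Over the 8 lists the sign changed in 8 of 40 values, for example from 9.7 to -1.4 in SCD BAT H3K9me2 with a promoter of 1 kb. All 24 values with 1 start per gene and all 8 with overlap required were among the 111. With a score of at least 80 the genes with a peak numbered 4 (SCD) and 11 (HFD) for BAT H3K9me2, 3 and 14 for BAT H3K9me3, while WAT H3K9me2 had 3 and 1 and WAT H3K9me3 had 0 and 5. HFD-only genes at that score were 9, 11, 0 and 5 in the same order, and SCD-only genes were 0 for BAT H3K9me3 and 2 for WAT H3K9me2. Without a lowest score SCD WAT H3K9me2 had 21 genes and SCD WAT H3K9me3 had 10, with 17 and 8 SCD only, and 1 gene was HFD only for WAT H3K9me2. A promoter of 1 kb left 7 HFD-only genes for WAT H3K9me3. Shares over all genes were not counted with a score of at least 80, no lowest score or 1 kb. Those counts therefore cannot be called particular to keratin genes. With equal numbers of peaks the HFD lists had 15 (BAT H3K9me2), 9 (BAT H3K9me3) and 3 genes (WAT H3K9me3), against 31.7%, 49.5% and 12.1% of all genes. HFD-only genes were then 11, 5 and 3, and SCD-only genes 5, 5 and 2, counts not made over all genes. Peaks across the type II cluster were 23, 14 and 2 in those HFD lists and across the type I cluster 20 in HFD WAT H3K9me3, an alternative chosen after seeing the data. A score of at least 80, no lowest score and equal numbers of peaks keep fewer or more peaks. The promoter of 1 kb narrows the window, and 1 start per gene uses fewer start sites. Overlap changes when a gene counts as shared by the diets. Depth is unknown, and 1 library per group leaves the diet untested.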
